A study of Mus musculus with 4 samples.

Results

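The miR-10, miR-99/100 and miR-125 families were examined in CD4+ T cells from the spleens of 1 MRL/lpr and 1 B6 mouse. Members were taken from the deposited lists of changed miRNAs by hairpin name, as any arm of miR-10a, miR-10b, miR-99a, miR-99b, miR-100, miR-125a, miR-125b or miR-351. Of the 114 listed miRNAs 7 were members, and 79 of the 652 listed mRNAs were paired with at least 1 of them in the deposited prediction columns. The MRL/lpr mouse carries the *lpr* mutation of *Fas* on the MRL background and is a lupus model, and the B6 mouse is C57BL/6J without that mutation. Both were females of 16 weeks, and the labels name no treatment. The CD4+ T cells were enriched by removing other splenocytes with magnetic beads, and each mouse gave 1 library of small RNA and 1 of mRNA. Although the series is described as having used 2 B6 mice, the labels name 1. With 1 library per strain and assay, no replicate error exists and no test between strains was made, and strain, *Fas* mutation, disease and the individual mouse cannot be told apart.

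A miRNA guides Argonaute proteins to mRNAs mainly through its seed, bases 2 to 8 from the 5′ end, and in animals this usually lowers the mRNA or its translation. The miR-10 and miR-99/100 families are related in sequence, and the hairpins of miR-10a and miR-10b lie within *Hox* gene clusters. The miR-125 family descends from the same ancestor as *lin-4* of the worm, and its genes stand next to those of miR-99/100 and let-7 in several conserved clusters. In earlier work miR-10a has been described in regulatory and helper T cells, and miR-125b in naive T cells and in blood stem cells.

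The mature sequences are shown because all differences described here are between miRNAs that share a seed. The letters of the deposited lists matched RefSeq for all 7 members, and positions are those of RefSeq on GRCm38.p6. The seed is in capitals.
miR-10a-5p: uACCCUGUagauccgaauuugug
miR-10b-5p: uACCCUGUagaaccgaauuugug
miR-99a-5p: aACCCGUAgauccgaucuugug
miR-99b-5p: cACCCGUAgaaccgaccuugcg
miR-125a-5p: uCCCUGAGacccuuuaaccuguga
miR-125b-5p: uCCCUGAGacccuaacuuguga
miR-351-5p: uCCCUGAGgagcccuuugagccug
The 7 miRNAs thus held 3 seeds, and no listed miRNA outside the families had any of these seeds. miR-10a-5p and miR-10b-5p differ by a single base, U12A, with positions counted from 1 at the 5′ end and the base of miR-10a-5p given first. miR-99a-5p and miR-99b-5p differ by A1C, U11A, U16C and U21C, with the base of miR-99a-5p first. miR-125a-5p is 3 edits from miR-125b-5p and 7 from miR-351-5p. miR-351-5p and miR-125b-5p are 10 edits apart, so outside the seed miR-351-5p resembles the other members least. miR-100-5p, which in RefSeq is 1 edit from miR-99a-5p, was in neither list, nor was any 3p arm of the families, and no value is given for them. The lists hold only miRNAs at least 2-fold apart with at least 100 reads over both libraries, so an unlisted arm is not read as unchanged.

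The genes of the members lie on several chromosomes. miR-10a-5p is encoded at chr11:96317186-96317208 (+ strand), inside *Hoxb3* as RefSeq annotates that gene. miR-10b-5p is at chr2:74726074-74726096 (+), inside the annotated spans of both *Hoxd3* and *Hoxd4*. miR-99a-5p is at chr16:77598940-77598961 (+) and miR-99b-5p at chr17:17830194-17830215 (+). miR-125a-5p is at chr17:17830817-17830840 (+), so its hairpin lies in 1 cluster of 692 bases with those of miR-99b and let-7e. miR-125b-5p comes from 2 hairpins, at chr9:41581940-41581961 (+) near *Mir100* and at chr16:77646279-77646300 (+) in the cluster of *Mir99a*, and its reads cannot be assigned to either. miR-351-5p is at chrX:53053315-53053338 (- strand), next to *Mir503* and *Mir322*.

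Members that shared a seed were found on opposite sides of the comparison. Of the 7 members, 4 (miR-10a-5p, miR-99a-5p, miR-125b-5p and miR-351-5p) were higher in MRL/lpr and 3 (miR-10b-5p, miR-99b-5p and miR-125a-5p) were lower, while 60.5% of all listed miRNAs were higher. Within each of the 3 seeds at least 1 member was higher and another was lower. With 10 RPM added to both values, with a limit of 4-fold or with a minimum of 1000 reads over both libraries, this split was kept within the miR-125 seed and lost within the miR-10 and miR-99 seeds. Of the 5 pairs of members with a common seed, 4 ran in opposite directions, the exception being miR-125b-5p with miR-351-5p. Several of these pairs have a member in common, so they are not independent of each other. The like share was not counted for pairs of other families, so this count is not read as particular to the members. At least 4-fold apart were 4 members (57.1%), against 47.4% of all listed miRNAs. The libraries held 29971024 trimmed reads in MRL/lpr and 33634335 in B6, and values are given as RPM (reads per 1000000 trimmed reads of the library), for which 1 read is worth 0.0334 RPM in MRL/lpr and 0.0297 RPM in B6. The 95% intervals (exact, after Clopper and Pearson) were computed from reads, which are not independent molecules, and so cover counting error only. The authors' miRNA totals were 21.8% of trimmed reads in MRL/lpr and 18.1% in B6. Scaling to these totals lowers each log2 fold by 0.27. This could not turn the direction of any member, as the lists hold only miRNAs at least 2-fold apart.

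**Figure D1:**
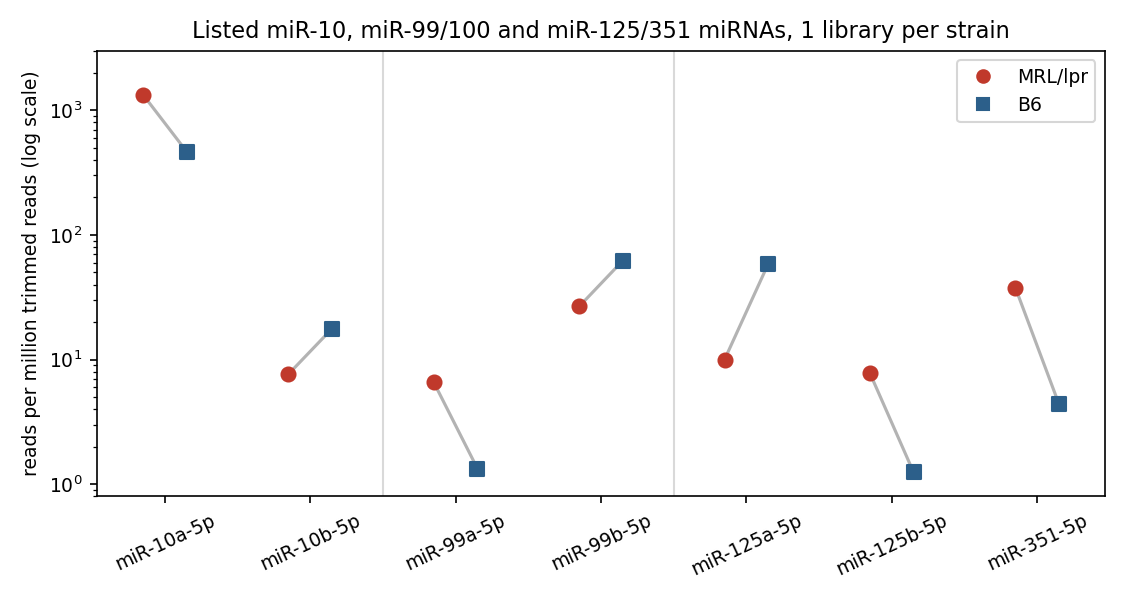
RPM (log scale) of the 7 listed members, with the MRL/lpr library (circle) left of the B6 library (square) and lines joining the values of 1 miRNA; vertical lines part the 3 seeds. Within each seed the joining lines slope both ways, and miR-10a-5p, at 1333 RPM in MRL/lpr and 466.4 RPM in B6, stands above all other members in both libraries.

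miR-10a-5p was by far the most abundant member. It had 39947 reads (1333 RPM) in MRL/lpr and 15687 reads (466.4 RPM) in B6, a fold of 2.86 (95% interval 2.81 to 2.91). It made up 93.2% of the members' reads in MRL/lpr and 76.2% in B6, and it ranked 14 among the 114 listed miRNAs by the sum of its RPM values. Its paralog miR-10b-5p ran the other way. miR-10b-5p had 229 reads (7.64 RPM) in MRL/lpr and 596 reads (17.7 RPM) in B6, and was 2.32-fold lower (95% interval 1.99 to 2.71). The reads of miR-10b-5p thus equalled 0.573% of those of miR-10a-5p in MRL/lpr and 3.80% in B6. The miRNAs differ by 1 base, and how reads with a mismatch were assigned is not given in the sources used here, so the split between these paralogs could not be checked. The listed miRNAs of other families nearest to miR-10a-5p in log2 fold over the 2 libraries were miR-148a-5p (fold 2.85) and miR-301b-3p (fold 2.84).

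The miR-99 paralogs also parted. miR-99a-5p had 197 reads (6.57 RPM) in MRL/lpr and 45 reads (1.34 RPM) in B6, a fold of 4.91 (95% interval 3.54 to 6.95). miR-99b-5p had 800 reads (26.7 RPM) in MRL/lpr and 2092 reads (62.2 RPM) in B6, and was 2.33-fold lower (95% interval 2.15 to 2.53). miR-99b-5p remained the more abundant of the pair in both libraries, with 80.2% of the reads of the pair in MRL/lpr (95% interval 77.6 to 82.7) and 97.9% in B6 (95% interval 97.2 to 98.5). Because miR-99a-5p is 1 edit from the unlisted miR-100-5p, reads may be shared between them. Nearest to miR-99b-5p in log2 fold were let-7g-5p (2.33-fold lower) and miR-466a-3p (2.38-fold lower).

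The largest differences were those of the miR-125 seed, which is shared by miR-125a-5p, miR-125b-5p and miR-351-5p. miR-125a-5p had 300 reads (10.01 RPM) in MRL/lpr and 1966 reads (58.5 RPM) in B6. It was 5.84-fold lower (95% interval 5.17 to 6.62), rank 6 by fold among the 45 lower miRNAs. miR-351-5p, which is encoded on chromosome X, had 1134 reads (37.8 RPM) in MRL/lpr and 148 reads (4.40 RPM) in B6. Its fold of 8.60 (95% interval 7.24 to 10.3) was rank 23 among the 69 higher miRNAs. miR-125b-5p had 233 reads (7.77 RPM) in MRL/lpr and 42 reads (1.25 RPM) in B6, a fold of 6.23 (95% interval 4.47 to 8.87) and rank 30 among them. For comparison, the median fold was 5.67 over the 69 higher miRNAs and 2.69 over the 45 lower ones, so that among the higher members miR-10a-5p and miR-99a-5p lay below the median of their list.

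**Figure D2:**
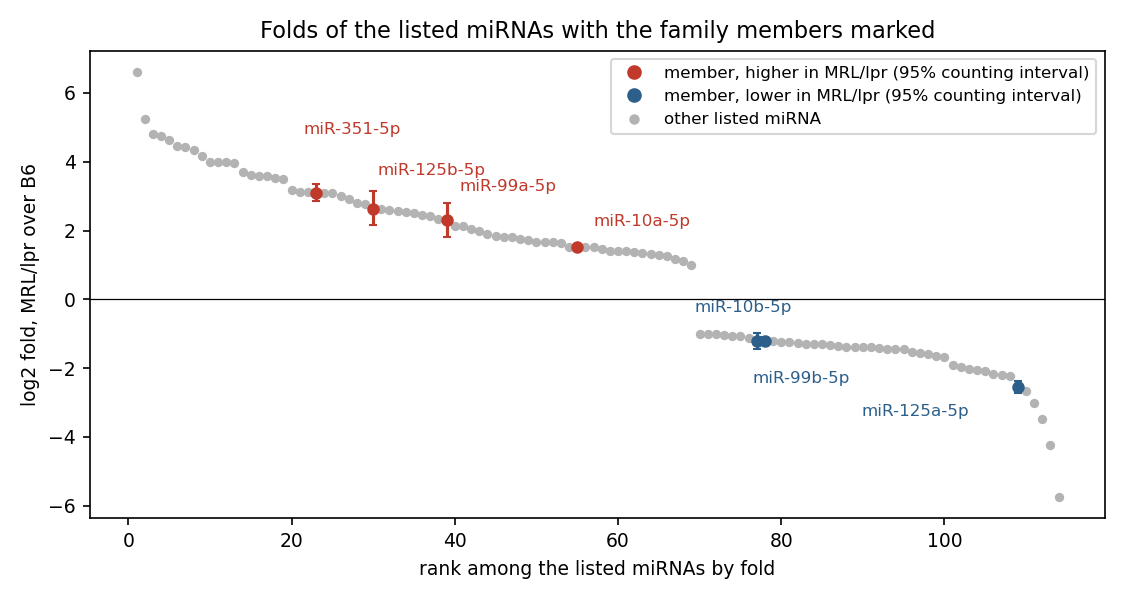
Log2 fold (MRL/lpr over B6) of each of the 114 listed miRNAs against its rank by fold; red points are members higher in MRL/lpr, blue points members lower in MRL/lpr, with bars for the 95% counting interval, and grey points are the other listed miRNAs. The gap around 0 comes from the 2-fold limit of the lists; miR-351-5p is the highest member at a log2 fold of 3.10 and miR-125a-5p the lowest at -2.55.

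Summed over a seed, these opposite differences left a small net difference for miR-125 and a larger one for miR-10. The listed members with the miR-125 seed together had 1667 reads (55.6 RPM) in MRL/lpr and 2156 reads (64.1 RPM) in B6, a fold of 0.868 (95% interval 0.813 to 0.925). This fold was 0.722 with the miRNA totals as the scale and 0.642 with the other listed miRNAs as the scale, so its size depends on the scaling. What differed was the make-up of this sum. miR-125a-5p gave 18.0% of it in MRL/lpr (95% interval 16.2 to 19.9) and 91.2% in B6 (95% interval 89.9 to 92.4). miR-351-5p gave 68.0% in MRL/lpr (95% interval 65.7 to 70.3) and 6.86% in B6 (95% interval 5.83 to 8.01), so that the leading miRNA of this seed was miR-351-5p in the MRL/lpr library and miR-125a-5p in the B6 library. miR-125b-5p gave 13.98% in MRL/lpr and 1.95% in B6. For each read of miR-125a-5p there were 3.78 reads of miR-351-5p in MRL/lpr and 0.0753 in B6. RPM is not calibrated between miRNAs, so shares of reads need not be shares of molecules.
The miR-10 sum followed miR-10a-5p, with 40176 reads (1340 RPM) in MRL/lpr and 16283 reads (484.1 RPM) in B6, a fold of 2.77 (95% interval 2.72 to 2.82). The miR-99 sum followed miR-99b-5p, with 997 reads (33.3 RPM) in MRL/lpr and 2137 reads (63.5 RPM) in B6, which is 1.91-fold lower (95% interval 1.77 to 2.06). These sums hold listed members only, and miR-100-5p, which has the miR-99 seed, is not in them.

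**Figure D3:**
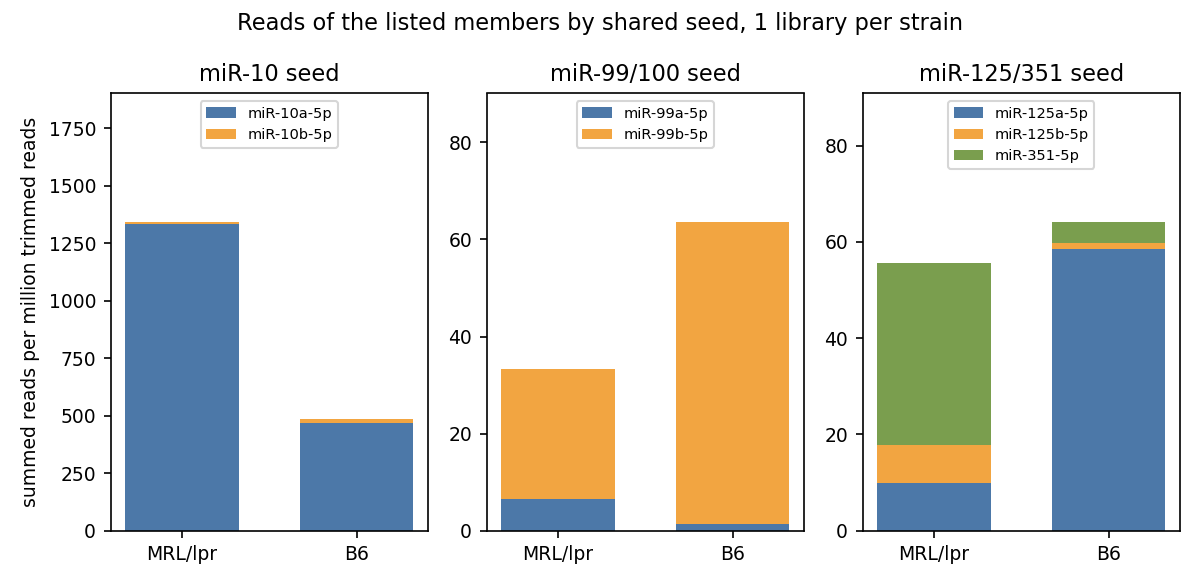
Summed RPM of the listed members of each seed, stacked by member, with MRL/lpr left and B6 right in each panel; the 3 panels have their own linear axes from 0. The miR-125 sum is similar in height in both libraries (55.6 RPM in MRL/lpr and 64.1 RPM in B6), while its main component is miR-351-5p in MRL/lpr and miR-125a-5p in B6.

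The neighbours of the members in the genome were examined next, as miRNAs of a cluster are often made from a common transcript. All 3 hairpins of the cluster on chromosome 17 had a listed arm, and all were lower. Between miR-99b-5p and miR-125a-5p lies let-7e-5p, which had 69 reads (2.30 RPM) in MRL/lpr and 860 reads (25.6 RPM) in B6 and was 11.1-fold lower (95% interval 8.68 to 14.4). The decrease was unequal along the cluster, at 2.33-fold for miR-99b-5p, 11.1-fold for let-7e-5p and 5.84-fold for miR-125a-5p, with counting intervals that do not overlap. In the cluster on chromosome 16, which spans 47408 bases, miR-99a-5p and miR-125b-5p were both higher, whereas let-7c-5p was lower. let-7c-5p had 310.0 RPM in MRL/lpr and 921.3 RPM in B6, 2.97-fold lower. let-7a-5p, which has a hairpin beside *Mir100* on chromosome 9, had 1469 RPM in MRL/lpr and 3190 RPM in B6, 2.17-fold lower. The mature sequences of let-7c-5p and of let-7a-5p are each found in 2 RefSeq hairpins, 1 of them outside these clusters, so their reads do not measure the clusters alone. miR-125b-5p has a hairpin in the cluster on chromosome 16 and another on chromosome 9, so its difference cannot be placed in either. Of the 6 names set for the neighbours of *Mir351* on chromosome X (miR-322, miR-424, miR-503, miR-542, miR-450a and miR-450b), none had a listed arm.

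The deposited mRNA tables pair each higher miRNA with lower mRNAs and each lower miRNA with higher mRNAs, by predicted targets. The direction of a partner is therefore fixed by its table and is not a finding. The tables name no unit, and their values are read as FPKM, the unit of the program whose column names they follow. Of the 79 partners, 61 (77.2%) were in the table of higher mRNAs, against 67.5% of all listed mRNAs. Since members with a common seed stood on both sides, predicted targets of each seed were found in both tables. Paired with the miR-125 seed were 13 lower mRNAs, through miR-125b-5p and miR-351-5p, and 43 higher mRNAs, through miR-125a-5p. Paired with the miR-10 seed were 5 lower mRNAs, through miR-10a-5p, and 14 higher mRNAs, through miR-10b-5p. For the miR-99 seed there was 1 lower mRNA, through miR-99a-5p, and there were 4 higher mRNAs, through miR-99b-5p. The higher partners of miR-10b-5p thus stood beside a sum of miR-10 reads that was 2.77-fold higher in MRL/lpr. Of the 13 partners of miR-125b-5p, 12 (92.3%) were also those of miR-351-5p, which had no others, so these lists are not independent of each other.

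Of the 18 lower partners, 4 had at least 10 FPKM in either library. *Klf13*, a Krüppel-like transcription factor of T cells paired with miR-125b-5p and miR-153-3p, had 27.6 FPKM in MRL/lpr and 60.7 FPKM in B6 (log2 fold -1.13). *Smg1*, a kinase of nonsense-mediated mRNA decay paired with miR-125b-5p and miR-351-5p, had 19.6 FPKM in MRL/lpr and 52.2 FPKM in B6 (log2 fold -1.41). *Bcl2l11*, which encodes the apoptosis promoter BIM, had 4.81 FPKM in MRL/lpr and 11.7 FPKM in B6. It is paired with miR-10a-5p and with 5 higher miRNAs of other families. *Mfhas1*, paired with miR-125b-5p and miR-351-5p, had 3.99 FPKM in MRL/lpr and 10.6 FPKM in B6. All 4 were over 2-fold lower in MRL/lpr, and none of them 4-fold. *Hs3st3b1*, a heparan sulfate sulfotransferase and the only lower partner of miR-99a-5p, had 1.81 FPKM in MRL/lpr and 4.13 FPKM in B6. It is paired with miR-126-5p too.

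The 5 partners that were at least 4-fold lower (*Slc6a19*, *Lpar2*, *Cldn10*, *Scn3a* and *Tmprss13*) made up 27.8% of the 18, against 29.2% of the lower mRNAs, and were all under 4 FPKM. *Slc6a19*, an amino acid transporter paired with miR-10a-5p, had the largest fold, with 0.0138 FPKM in MRL/lpr and 0.116 FPKM in B6, 8.42-fold lower. This fold rests on very low values, and with 0.1 FPKM added to both its log2 fold was -0.93. *Lpar2*, a receptor for lysophosphatidic acid paired with miR-10a-5p and miR-143-3p, had 0.611 FPKM in MRL/lpr and 3.86 FPKM in B6, 6.31-fold lower. *Cldn10*, a tight junction claudin paired with miR-125b-5p, miR-351-5p and miR-410-3p, had 0.345 FPKM in MRL/lpr and 2.11 FPKM in B6, 6.11-fold lower. *Acer2*, a ceramidase that releases sphingosine, was the only gene paired with 2 of the seeds, through miR-10a-5p, miR-125b-5p and miR-351-5p. It had 0.570 FPKM in MRL/lpr and 1.31 FPKM in B6, 2.30-fold lower. *Slc26a10* had 0.599 FPKM in MRL/lpr and 1.77 FPKM in B6, and *Emid1* had 1.03 FPKM in MRL/lpr and 2.19 FPKM in B6. Under 1 FPKM in both libraries were 8 of the 18 (*Slc6a19*, *Scn3a*, *Tmprss13*, *Hcn3*, *Slc4a10*, *Rbm20*, *Ccdc36* and *Mab21l3*). This is 44.4%, near the 43.4% of all lower mRNAs. The median log2 fold was -1.42 for the partners and -1.56 for the whole table. By member, the median was -2.23 for the 5 partners of miR-10a-5p, of which 3 were at least 4-fold lower, and -1.41 for the 13 partners of miR-125b-5p, of which 2 were. The 18 partners together were thus near the rest of the table in median and in share at 4-fold. The median of the miR-125b-5p partners was nearer to 0 and that of the miR-10a-5p partners further from it. The latter median is the value of *Scn3a*, which had 0.00329 FPKM in MRL/lpr and 0.0154 FPKM in B6. With 0.1 FPKM added to both, the log2 fold of *Scn3a* was -0.16, so this median rests on very low values.

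**Figure D4:**
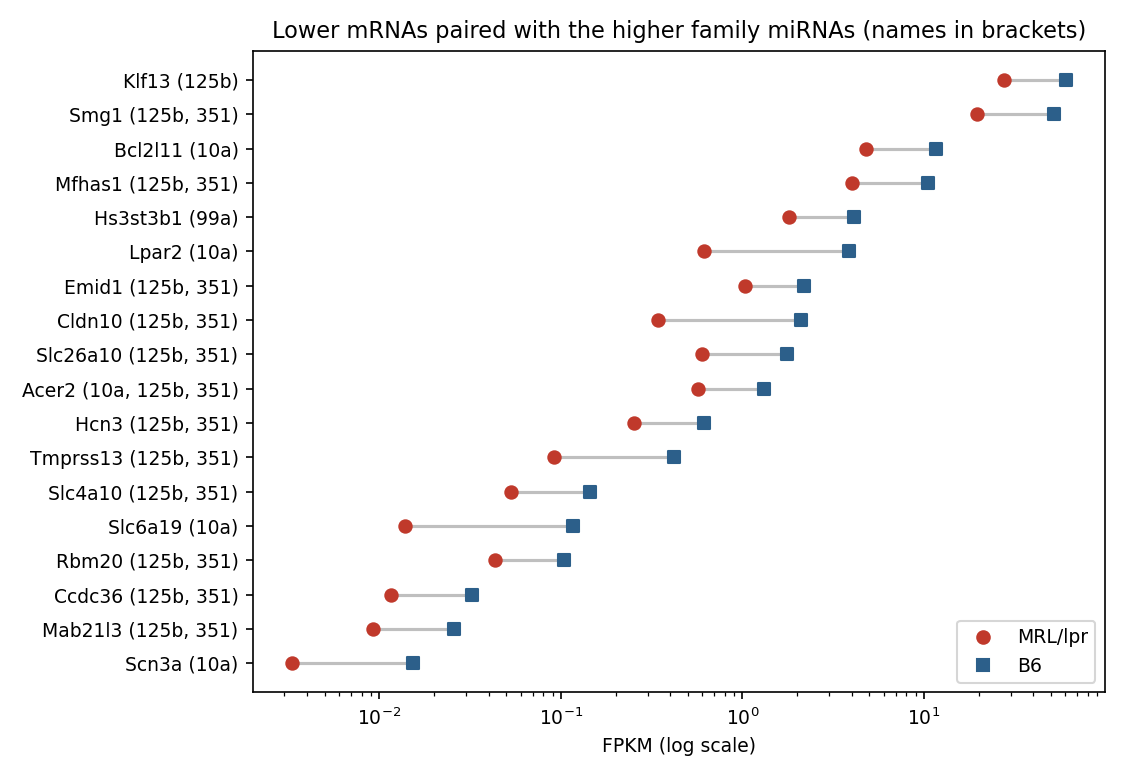
FPKM (log scale) of the 18 lower mRNAs paired with higher members, ordered by level, with MRL/lpr as circles and B6 as squares; names in brackets are the members paired with each gene. *Klf13* and *Smg1* are highest, at 27.6 and 19.6 FPKM in MRL/lpr and 60.7 and 52.2 FPKM in B6, and 8 genes lie under 1 FPKM in both libraries.

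Of the 61 higher partners, 43 were paired with miR-125a-5p, and 8 of these had at least 10 FPKM in either library. *Irf4*, a transcription factor of activated T cells and plasma cells, had 35.4 FPKM in MRL/lpr and 10.1 FPKM in B6 (log2 fold 1.81). *Fam46c*, a noncanonical poly(A) polymerase, had 98.0 FPKM in MRL/lpr and 33.3 FPKM in B6 (log2 fold 1.56), and it is paired with miR-342-3p as well. *Tnfrsf9*, the costimulatory receptor 4-1BB, had 23.1 FPKM in MRL/lpr and 9.93 FPKM in B6. *Tnfsf4*, the ligand of the costimulatory receptor OX40, which was chosen after its values were seen, had 2.38 FPKM in MRL/lpr and 0.289 FPKM in B6. The level of *Tnfsf4* was thus well under that of *Tnfrsf9* in both libraries.
*Prelid2* had 20.2 FPKM in MRL/lpr and 2.09 FPKM in B6, 9.70-fold higher. *Plod3*, a lysyl hydroxylase, had 18.8 FPKM in MRL/lpr and 4.68 FPKM in B6. *Psmg3*, a proteasome assembly chaperone, had 13.8 FPKM in MRL/lpr and 4.33 FPKM in B6. *Scarb1*, the receptor for high density lipoprotein, had 12.7 FPKM in MRL/lpr and 4.05 FPKM in B6, and it is paired with 3 lower arms of the miR-181 family as well. The largest folds were found at lower levels. *Scnn1a*, a subunit of the epithelial sodium channel, had 0.993 FPKM in MRL/lpr and 0.0701 FPKM in B6, 14.2-fold higher. *Ache*, acetylcholinesterase, had 3.45 FPKM in MRL/lpr and 0.249 FPKM in B6, 13.9-fold higher. *Galnt14*, an enzyme of O-glycosylation, had 0.614 FPKM in MRL/lpr and 0.0511 FPKM in B6, 12.02-fold higher. *Ceacam1*, an adhesion molecule and inhibitory receptor, had 3.80 FPKM in MRL/lpr and 0.365 FPKM in B6, 10.4-fold higher. *Sec14l2*, a lipid-binding protein, was 9.65-fold higher, and *Fut1*, a fucosyltransferase, was 8.72-fold higher. With 1 FPKM added to both values, the log2 folds of *Scnn1a* and *Galnt14* were 0.90 and 0.62. Those of *Ache*, *Ceacam1*, *Sec14l2* and *Fut1* were then 1.83, 1.81, 2.16 and 1.46.

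The 14 partners of miR-10b-5p included *Stmn1*, the most abundant higher partner, and *C4b*, which had the largest fold where nothing was added to its low values. *Stmn1*, which destabilizes microtubules and is high in dividing cells, had 165.6 FPKM in MRL/lpr and 48.3 FPKM in B6 (log2 fold 1.78). *Kif18a*, a kinesin of mitosis chosen after its values were seen, had 4.73 FPKM in MRL/lpr and 1.48 FPKM in B6. The proliferation marker *Mki67*, not itself a partner, stood beside them at 83.1 FPKM in MRL/lpr and 12.7 FPKM in B6, and its part in these differences was not tested. *C4b*, complement component 4, had 2.78 FPKM in MRL/lpr and 0.0334 FPKM in B6, 83.3-fold higher. With 1 FPKM added to both values its log2 fold was 1.87 instead of 6.38, below the 2.78 of *Prelid2* and the 2.62 of *Niacr1*. *C4a*, a near-identical copy that is also paired with miR-10b-5p, had 0.580 FPKM in MRL/lpr and 0.263 FPKM in B6, and reads of these genes may be split between them. *Niacr1*, the receptor for nicotinic acid, had 11.4 FPKM in MRL/lpr and 1.01 FPKM in B6, 11.3-fold higher. *Myadm* had 13.0 FPKM in MRL/lpr and 2.67 FPKM in B6 and is paired with miR-200a-3p too. *Onecut2* was 10.7-fold higher at no more than 0.0233 FPKM. *Hoxb3*, the *Hox* gene whose annotated span holds *Mir10a*, had 0.436 FPKM in MRL/lpr and 0.0557 FPKM in B6, 7.82-fold higher, beside the fold of 2.86 for miR-10a-5p. The fold of *Hoxb3* rests on low values. Its log2 fold of 2.97 became 1.78 with 0.1 FPKM added to both values and 0.44 with 1 FPKM added. Of the 4 partners of miR-99b-5p, *Minpp1*, an inositol polyphosphate phosphatase, was the most abundant, with 27.4 FPKM in MRL/lpr and 13.6 FPKM in B6. The other 3 (*Cubn*, *Ttc39a* and *Hs3st2*) were under 1 FPKM in both libraries.
Of the 61 higher partners 32 (52.5%) were at least 4-fold higher, against 49.8% of the higher mRNAs. The median log2 fold was 2.02 for the partners and 1.99 for the whole table, and by member it was 2.10 for miR-125a-5p, 1.84 for miR-10b-5p and 2.05 for miR-99b-5p. As for the lower partners, the share and the median were near those of the table. A family member was the sole deposited partner for 54 of the 61 higher mRNAs, and family members alone were paired with 8 of the 18 lower ones. The like share was not counted for mRNAs paired with other families, so these counts are not read as particular to the members.

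**Figure D5:**
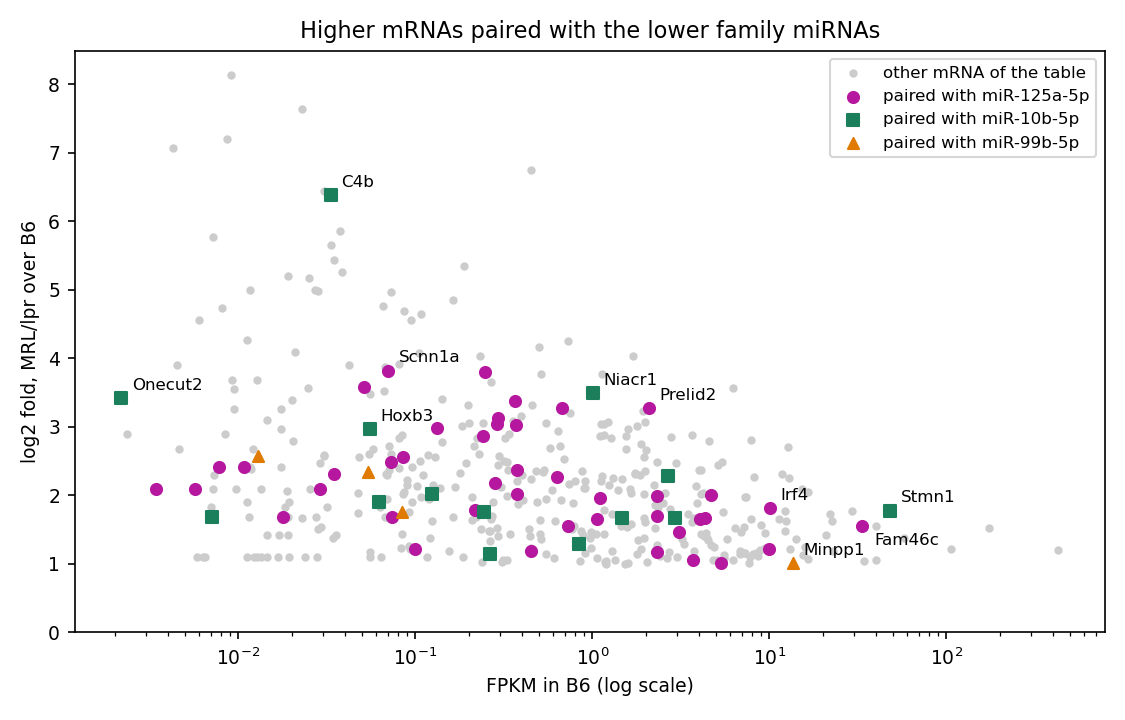
Log2 fold (MRL/lpr over B6) of the 440 higher mRNAs against their FPKM in B6 (log scale); coloured symbols are the 61 partners of miR-125a-5p (circles), miR-10b-5p (squares) and miR-99b-5p (triangles), and grey points are the other genes of the table. The partners range in level from *Onecut2* at 0.00219 FPKM to *Stmn1* at 48.3 FPKM in B6.

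Few fragments can stand behind the partners of low level. Of the 79 partners, 32 were under 1 FPKM in both libraries, which is 44.4% of the lower and 39.3% of the higher partners. These shares are near those of all lower (43.4%) and all higher (37.3%) listed mRNAs. Several of the 32 had the same ratio of their values to within 0.01%, and are named here because of it. *Cgn*, *Fam13a* and *Prss33* shared a ratio of 3.20, *Frmpd4*, *Myt1* and *Ocln* one of 4.27, and *Kcnq3* and *Sstr3* one of 5.34, which are 3, 4 and 5 times a common value of 1.07. For 13 of the 32, *Onecut2*, *Slc6a19*, *Scn3a*, *Ccdc36* and *Mab21l3* among them, the ratio was a whole number of at most 10 times this value, or for lower genes that whole number over it, to the same tolerance. No such count was made over the other listed mRNAs. Values that step in this way are those of small fragment numbers, which the tables do not give, and the folds of these genes carry no interval.

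Lists of genes known from other work as targets or neighbours of the families were looked up in the mRNA tables, which hold only predicted targets of listed miRNAs with a 2-fold difference, so an unlisted gene is not read as unchanged. Of the 11 genes of the *HOX* list only *Hoxb3* was listed, and of the 11 genes of the miR-99/100 target list, which includes *Mtor* and *Igf1r*, none was. Of the 12 genes of the miR-10 target list 2 were lower (*Bcl2l11* and *Gata6*, with *Gata6* at 0.0310 FPKM in MRL/lpr and 0.0676 FPKM in B6) and 1, *Irf4*, was higher. Of the 22 genes of the miR-125 target list 4 were higher and 1, *Klf13*, was lower, in tables of which 67.5% of the mRNAs were higher. *Bak1*, an apoptosis promoter known as a target of miR-125b, had 38.3 FPKM in MRL/lpr and 12.4 FPKM in B6, and it is not paired with miR-125a-5p in the deposited table. *Arid3a* had 10.6 FPKM in MRL/lpr and 2.58 FPKM in B6, and *Socs3* had 83.1 FPKM in MRL/lpr and 39.9 FPKM in B6. Both were likewise listed without a family partner, and *Irf4* was the remaining higher gene.

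The make-up of the cells was examined through markers, of which only predicted targets could be listed. Of 9 T cell markers, *Tcf7* and *Lef1* were listed and lower, with a summed 172.2 FPKM in MRL/lpr and 564.6 FPKM in B6. Of 8 myeloid and neutrophil markers, *Itgam* and *Cd177* were listed and higher, with a summed 76.5 FPKM in MRL/lpr and 2.16 FPKM in B6. Of 7 stromal and endothelial markers only *Cdh5* was listed, at 0.228 FPKM in MRL/lpr and 0.0840 FPKM in B6. *Klrd1* was the 1 gene of 5 CD8 T and NK cell markers, at 6.22 FPKM in MRL/lpr and 27.0 FPKM in B6, and *Tfrc* the 1 gene of 6 erythroid markers, at 37.9 FPKM in MRL/lpr and 15.9 FPKM in B6. None of 5 B and plasma cell markers and 1 of 4 markers of dividing cells, *Mki67*, was listed. The part of these cells in the differences of the members and partners was not tested, and in bulk RNA fewer cells of a type and less RNA per cell cannot be told apart.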

How the data were processed

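Small RNA and mRNA of splenic CD4+ T cells were sequenced from 1 MRL/lpr and 1 B6 mouse. For mature miRNAs the authors deposited a read count, an RPM over all trimmed reads and a ratio of the RPM values (fold), which was recomputed. For mRNAs the authors deposited values named raw, read here as FPKM from the Cuffdiff column names, together with their log2 ratio, which was not used. The tables also hold the authors' fold changes and, for higher mRNAs, p-values and q-values, which were not used. Aligner, genome build, annotation and miRBase release: not given in the sources used here. Folds are MRL/lpr over B6 and were computed with Python 3.11.15 and SciPy 1.17.1. Exact Clopper-Pearson limits at 95% were checked on simulated reads drawn as independent counts. This checks the computation only, as the limits assume such counts. No value was added before a ratio. An edit is a substituted, inserted or deleted base. Named partners are those paired with at least 2 members, the 10 with the largest fold and the 10 with the highest level in each table, and genes of the lists. The members and lists were chosen with earlier results of these data known. Alternatives were added RPM or FPKM, other scalings, stricter folds and minimum levels.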

Additional observations from a re-analysis of the deposited data

How the results depend on the processing

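No paired analysis was possible because a strain was sequenced in only 1 library per assay. The 4 higher and 3 lower members became 2 and 1 with 10 RPM added to both values, 2 and 2 with at least 1000 reads, and 3 and 1 at 4-fold. Counting identical sequences once could not change these counts, as the sequences of the members all differ. The counts stayed at 4 and 3 with 1 RPM added, with the miRNA totals as the scale and with the other listed miRNAs as the scale. The last of these alternatives was chosen after seeing the data. Both changes of scale lower every fold and only listed members were counted, so the count of lower members could not change under them. With these scales, miRNA totals first, the summed fold was 2.30 and 2.05 for the miR-10 seed, 0.435 and 0.387 for the miR-99 seed, and 0.722 and 0.642 for the miR-125 seed. Of 28 folds of members under alternatives 19 left the counting interval. None turned, but none could. RPM added to both values cannot reverse a ratio, and both changes of scale were smaller than the 2-fold limit of the lists. The 18 lower partners became 5 at 4-fold, 10 at 1 FPKM or more, 6 with 1 FPKM added and 8 when paired with family miRNAs only, and the 61 higher ones 32, 37, 27 and 54. With 1 FPKM added, the median log2 fold was -0.60 for lower and 0.90 for higher partners, and 17 of 38 named partners fell under 2-fold. Depth limits miR-125b-5p and miR-99a-5p most, with 42 and 45 reads in B6.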
